A study of Mus musculus with 9 samples.

Results

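Dido1 and 3 genes related to it through the elongation factor TFIIS were followed in mouse embryonic stem cells exposed to inhibitors of GSK3. The members were taken by symbol from the gene count table: Dido1, its relative Phf3, and the TFIIS genes Tcea1 and Tcea3. They are 4 of the 52264 rows of that table, and all 4 were among the 15366 rows that passed the filter on low counts. The set was chosen by the measured counts of Dido1, which were far lower in the CHIR libraries than in the other groups. Its values in every comparison are therefore given as descriptions without a p value. Which values, if any, led to the choice of the other 3 genes is not recorded, and their CHIR values are given in the same way.

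There were 9 RNA sequencing libraries, 3 per group, of cells labelled as embryonic stem cells with both copies of the β-catenin gene inactivated. In every group the cells had been grown on feeder-treated dishes, where expansion of naive cells used 3 µM CHIR-99021, 1 µM PD03 (which blocks MEK) and LIF at 40 ng/ml, and had then spent a night in N2B27 medium. The groups were an untreated control, BRD0705, an inhibitor selective for GSK3α, and CHIR, the label's short name for CHIR-99021, which inhibits GSK3α and GSK3β. Treatment lasted 30 min. The doses of this treatment, the clone and the mouse strain are not given in the sources used here, and the labels do not say whether the 3 libraries of a group came from separate cultures, so p values measure the spread between libraries, which may be technical.

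TFIIS rescues RNA polymerase II that has slid backwards on its template: it reaches into the enzyme and stimulates cleavage of the protruding end of the nascent RNA, after which elongation resumes. Tcea1 encodes the widely expressed form of TFIIS, Tcea2 a form best known from testis, and Tcea3 a form known from muscle and from mouse embryonic stem cells. PHF3 and the longest of the proteins encoded by Dido1 carry a domain like the central one of TFIIS, a PHD finger and a SPOC domain. PHF3 uses its SPOC domain to dock on the phosphorylated tail of RNA polymerase II and competes with TFIIS, and DIDO1 proteins bind methylated histone H3 through the PHD finger and have been linked to stem cell differentiation. Dido1 is transcribed into several isoforms that share their first coding exons, and counts per gene do not tell them apart.

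On the mouse genome build GRCm38, which is the build mm10 named in the submitters' processing notes, RefSeq places Dido1 (gene 23856) on chromosome 2 from 180657963 to 180710068, on the minus strand. Its neighbour Gid8, which encodes a subunit of the CTLH ubiquitin ligase, starts at 180710122 on the plus strand, so 53 bases lie between these divergent genes. The RefSeq promoter table gives 3 windows for Dido1, each of 250 bases before and 50 after a start. The outermost, chr2:180709950-180710249 on the minus strand, is built on a start at 180709999, which lies 69 bases inside the outer end of the gene. It also holds the start of Gid8. It is shown because the neighbours that share it behaved differently in these libraries, with the palindrome CTCGCGAG in capitals. By these coordinates the capitals lie beyond the outer end of Dido1 and inside the RefSeq span of Gid8.
Dido1 promoter: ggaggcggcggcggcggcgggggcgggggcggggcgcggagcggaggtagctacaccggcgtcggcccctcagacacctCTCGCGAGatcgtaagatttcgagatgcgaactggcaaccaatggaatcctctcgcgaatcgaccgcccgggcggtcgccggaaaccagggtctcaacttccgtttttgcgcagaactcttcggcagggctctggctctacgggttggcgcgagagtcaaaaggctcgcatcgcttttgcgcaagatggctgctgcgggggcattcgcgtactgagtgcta
This palindrome, its own reverse complement, begins at base 80 of the window and occurs in 302 of 32851 RefSeq promoter windows of this length (0.919%). It is in 1 of the 3 Dido1 windows and in 0 windows of Tcea3 or Ppp1r10. The promoter table holds no window of Phf3 or Tcea1, so these genes were not searched. The share is over windows of any GC content, and the window shown has 65.0% GC. Whether the palindrome was chosen after the window was seen is not recorded, so nothing is read from its share. Of the other motifs searched on both strands, CTTTGAT, a TCF/LEF type site, is in 3.73% of all windows, TGACGTCA, the cyclic AMP response element, in 1.79% and CACGTG, an E-box, in 7.15%. None of these 3 is in the Dido1 window shown. The counts do not show which start was used.

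The libraries held 17359422 to 20773337 counts. The 10 embryonic stem cell markers checked, among them Pou5f1, Sox2 and Nanog, were present in every library and summed to 5223 to 5585 CPM. By edgeR 1 of them, Esrrb, passed as higher for CHIR and 0 for BRD0705, each against control. All 10 fibroblast markers checked for feeder cells were present too, and none was at 0. They summed to 2273 to 2744 CPM in control, 2879 to 2969 CPM under BRD0705 and 2588 to 3068 CPM under CHIR. By edgeR 2 of 10 passed as higher for CHIR and 1 of 10 for BRD0705, each against control. Of all tested genes 2.52% and 0.690% passed as higher in these contrasts. All 10 fibroblast markers had a positive log2 fold change in both, as did 7313 and 7534 of the 15366 tested genes. In bulk RNA, fewer cells of a type and less RNA per cell cannot be told apart. With a feeder score (mean log2 CPM of these 10 markers) in the model, the log2 fold change of Dido1 for CHIR against control was -1.42. The score was 6.30 to 6.53 in control, 6.61 to 6.70 under BRD0705 and 6.43 to 6.69 under CHIR. Control and BRD0705 did not overlap in it, so a model with the score can hardly tell it apart from the BRD0705 treatment.

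Dido1 was lower in all 3 CHIR libraries than in any other library. It stood at 310, 289 and 321 CPM (counts scaled to library size) in control replicates 1 to 3, at 339, 322 and 306 CPM under BRD0705, and at 114, 115 and 119 CPM under CHIR. The CHIR values did not overlap with either other group, whereas control and BRD0705 values were interleaved; 25.1% of all tested genes did not overlap between CHIR and control, and 20.2% between BRD0705 and control. From raw counts, the gene had 5976 to 6517 reads in control, 5666 to 6445 under BRD0705 and 2090 to 2289 under CHIR. The group means were 307 ± 16.1 CPM in control, 322 ± 16.3 CPM under BRD0705 and 116 ± 2.79 CPM under CHIR (SD over n = 3).

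**Figure D1:**
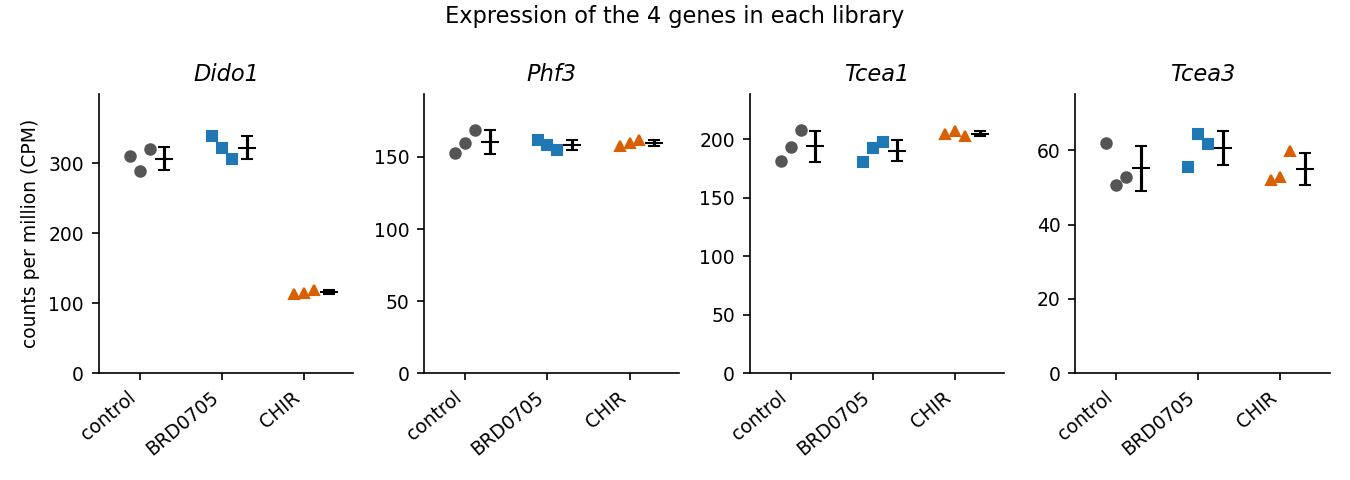
Expression of Dido1, Phf3, Tcea1 and Tcea3 in CPM (vertical axes, from 0) in each control, BRD0705 and CHIR library; symbols are libraries, and the bar beside them is the mean with its SD (n = 3). Dido1 sits at 114 to 119 CPM in the CHIR libraries and at 289 to 339 CPM in the others, while the groups of the other genes lie close together.

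The level of Dido1 under CHIR was 2.64-fold lower than control, a log2 fold change of -1.40 ± 0.06 (SE; 95% interval -1.52 to -1.28). Against BRD0705 the CHIR level was 2.77-fold lower, and the log2 difference of BRD0705 over CHIR was 1.47 ± 0.06 (SE; 95% interval 1.35 to 1.59). Among the 2164 tested genes with a mean of at least 100 CPM, 2 were as low as this or lower in CHIR against control, Dido1 itself and Ppp1r10. Ppp1r10, with a mean of 105 CPM, only just reached that level. Over all tested genes, 40 were as low as Dido1 or lower, with Dido1 counted. These ranks describe the values by which Dido1 was chosen, and nothing is read from them. For BRD0705 against control the log2 fold change of Dido1 was 0.07 ± 0.05 (SE; 95% interval -0.04 to 0.19). The choice of Dido1 also used the control and BRD0705 values, since both lay above CHIR, so no p value is given. The interval from -0.04 to 0.19 is not a bound on the change. If the libraries of a group are technical, it also leaves out the spread between cultures.

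**Figure D2:**
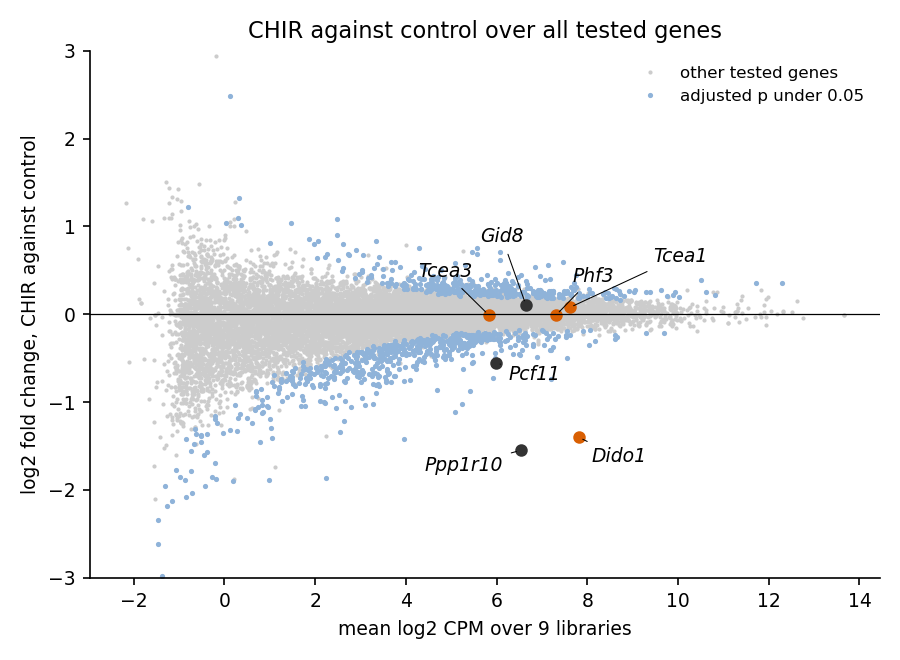
Log2 fold change of CHIR against control (vertical axis) over mean log2 CPM in the 9 libraries (horizontal axis) for all 15366 tested genes; blue points passed an adjusted p of 0.05, orange points are the 4 genes and dark points are genes named in the text. Dido1 (-1.40) and Ppp1r10 (-1.55) lie apart from other genes of similar level, Phf3, Tcea1 and Tcea3 lie near 0, and 2 genes fall outside the plotted range of -3 to 3.

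Phf3, the closest relative of Dido1 in this set, had nearly the same level everywhere. RefSeq places it (gene 213109) on chromosome 1 of GRCm38 from 30802342 to 30873922. It was at 153, 160 and 169 CPM in control, 162, 159 and 155 CPM under BRD0705 and 158, 160 and 161 CPM under CHIR, and the 3 groups overlapped. The log2 fold change was -0.01 ± 0.05 for CHIR against control (SE; 95% interval -0.12 to 0.10). For BRD0705 against control it was -0.02 ± 0.05 (SE; 95% interval -0.13 to 0.09; edgeR adjusted p 0.917). The read counts of both relatives within a library do not depend on how libraries are scaled. Dido1 had 1.92 ± 0.111 reads per Phf3 read in control, 2.03 ± 0.0606 under BRD0705 and 0.728 ± 0.0103 under CHIR (SD over n = 3).

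Tcea1 was the most abundant of the TFIIS genes. It lies on chromosome 1 from 4857694 to 4897909 (RefSeq gene 21399, GRCm38). Control libraries held 181, 193 and 208 CPM, BRD0705 libraries 180, 192 and 198 CPM and CHIR libraries 204, 207 and 202 CPM. CHIR values lay within the control range, and each of them was above all 3 BRD0705 values. The log2 fold change of CHIR against control was 0.08 ± 0.06 (SE; 95% interval -0.04 to 0.20). BRD0705 against control gave -0.03 ± 0.06 (SE; 95% interval -0.15 to 0.09; edgeR adjusted p 0.854), and BRD0705 against CHIR gave -0.11 ± 0.06 (SE; 95% interval -0.23 to 0.01). Reads of a processed pseudogene could be confused with those of Tcea1. The row Tcea1-ps1 held 12 to 22 counts per library, and Gm6104, a pseudogene inside Tcea1, at most 10, against 3365 to 4214 for Tcea1.

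Tcea3 was less abundant and varied more between libraries of a group. Its position is chromosome 4 from 136247936 to 136274903 (RefSeq gene 21401, GRCm38). The level was at 62.0, 50.7 and 52.8 CPM in control, 55.5, 64.4 and 61.6 CPM under BRD0705 and 52.1, 52.7 and 59.9 CPM under CHIR. All 3 groups overlapped, and control replicate 1 and CHIR replicate 3 lay above the other libraries of their group. CHIR against control gave a log2 fold change of -0.01 ± 0.08 (SE; 95% interval -0.18 to 0.16). BRD0705 against control gave 0.13 ± 0.08 (SE; 95% interval -0.03 to 0.30; edgeR adjusted p 0.441). Within libraries there were 0.286 ± 0.0489 Tcea3 reads per Tcea1 read in control, 0.318 ± 0.0144 under BRD0705 and 0.268 ± 0.0239 under CHIR (SD over n = 3).

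The remaining genes of both families were low. Tcea2 had 41 to 61 counts per library, a level of 2.42 ± 0.346 CPM in control, 2.78 ± 0.192 CPM under BRD0705 and 2.56 ± 0.340 CPM under CHIR (SD over n = 3). No contrast of Tcea2 passed the test (edgeR adjusted p 0.870 for CHIR and 0.652 for BRD0705, each against control). Spocd1, a germline gene of the PHF3 and DIDO1 family that takes part in piRNA-directed DNA methylation, had 0 to 5 counts per library and did not pass the filter.

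In counts of calls, 1 of the 4 genes passed an adjusted p of 0.05 for CHIR against control, the contrast for which Dido1 was chosen, where 6.30% of all tested genes passed. For BRD0705 against control 0 of 4 passed in edgeR, 0 had an unadjusted p under 0.05 and 0 passed in DESeq2, where the shares of all tested genes were 1.22%, 15.9% and 2.16%. BRD0705 against CHIR gave 7.77% of all tested genes and 1 of the 4, again Dido1. In both contrasts with CHIR the choice of Dido1 fixed this outcome, and nothing is read from it. The choice also used the control and BRD0705 values of Dido1, so its lack of a call there is a description only. The CPM of Tcea1 did not overlap between BRD0705 and CHIR without passing the test, as 26.7% of all tested genes did not overlap there.

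Per length of transcript, Dido1 stood beside Tcea1 in control and beside Tcea3 under CHIR. These levels are CPM per kb of the canonical GENCODE vM39 transcript (8742 bases for Dido1, 7564 for Phf3, 4916 for Tcea1 and 4231 for Tcea3), and since other isoforms have other lengths they are approximate. In control the order was Tcea1 at 39.5 ± 2.71, Dido1 at 35.1 ± 1.84, Phf3 at 21.2 ± 1.08 and Tcea3 at 13.04 ± 1.43 CPM per kb (SD over n = 3). The highest Dido1 library (36.7) and the lowest Tcea1 library (36.8) nearly touched. Under BRD0705 the order was the same, and the ranges of Tcea1 (36.6 to 40.2) and Dido1 (35.0 to 38.7) overlapped. Under CHIR, Tcea1 was at 41.6 ± 0.491, Phf3 at 21.1 ± 0.251, Dido1 at 13.3 ± 0.319 and Tcea3 at 12.98 ± 1.03 CPM per kb (SD over n = 3). Dido1 and Tcea3 overlapped there, from 13.1 to 13.7 and from 12.3 to 14.2, so their order is not resolved.

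The transcripts differ in features that the choice of genes did not use. The canonical Dido1 and Phf3 transcripts each have 4 ATTTA pentamers, the core of AU-rich elements, in 3′ untranslated regions of 1394 and 1460 bases. Those of Tcea1 and Tcea3 are longer, 3564 and 3053 bases, with 3 and 0 pentamers. The median of 13130 tested coding genes was 1.35 pentamers per kb, against 2.87 for Dido1, 2.74 for Phf3, 0.842 for Tcea1 and 0 for Tcea3.

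Gid8, divided from Dido1 by 53 bases, did not follow it. It was at 94.99, 103 and 97.2 CPM in control, 95.5, 96.6 and 95.7 CPM under BRD0705 and 103, 110 and 105 CPM under CHIR. The CHIR libraries were the highest, if only just, and no contrast passed the test. Its log2 fold change for CHIR against control was 0.11 ± 0.05 (SE; 95% interval -0.003 to 0.22; edgeR adjusted p 0.261). Reads of Dido1 per read of Gid8 were 3.13 ± 0.273 in control, 3.36 ± 0.176 under BRD0705 and 1.10 ± 0.0468 under CHIR (SD over n = 3). On the other side of Dido1, Tcfl5, a basic helix-loop-helix transcription factor gene, was at 47.9 ± 3.05 CPM in control and 48.3 ± 2.07 CPM under CHIR (SD over n = 3).

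The nearest tested coding genes on both sides of the 4 genes were Tcfl5 and Gid8 for Dido1, Lmbrd1 and Ptp4a1 for Phf3, Lypla1 and Rgs20 for Tcea1, and Asap3 and Zfp46 for Tcea3. Lmbrd1 lies 6036040 bases from Phf3 and is a neighbour in name only. For CHIR against control 0 of these 8 passed in edgeR and 0 in DESeq2, and 2 had an unadjusted p under 0.05. Of all tested genes 6.30% passed in edgeR and 5.65% in DESeq2, and 20.5% had such a p. In BRD0705 against control 1 of 8 passed in edgeR, where 1.22% of all tested genes did. This was Lypla1, the acyl protein thioesterase gene beside Tcea1, which fell to a log2 fold change of -0.26 ± 0.06 (SE; edgeR adjusted p 0.0426). The call held only without control replicate 1 or CHIR replicate 1. Leaving out any of the other 7 libraries gave an adjusted p of 0.0513 to 0.236. It was also lost with library size only (0.0565), in a fit of only the compared groups (0.0555), without the GC and length trend (0.100) and with the feeder score in the model (log2 fold change -0.17, adjusted p 0.739). The feeder score itself did not overlap between control and BRD0705. Between the inhibitors 1 of the 8 passed in edgeR, again Lypla1, where 7.77% of all tested genes passed. Lypla1 was lower under BRD0705 by a log2 difference of -0.21 ± 0.06 (SE; edgeR adjusted p 0.0368). That call was lost without control replicate 3 or any BRD0705 or CHIR library (adjusted p 0.0533 to 0.124), with library size only (0.101), with the feeder score (0.0684) and without the GC and length trend (0.0540).

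The profile most like that of Dido1 was sought among 12407 tested genes whose log2 CPM averaged 1 or more, by the root mean square difference of log2 CPM over the 9 libraries after centring each gene on its own mean. The 5 nearest were Zfp324, a zinc finger gene (difference 0.120), Ppp1r10 (0.124), the noncoding gene 4930461G14Rik (0.163), Tlr5, the flagellin receptor gene (0.216), and Tasor, which encodes a subunit of the HUSH silencing complex (0.246). Their Pearson correlations with Dido1 over the 9 libraries, which share the split between CHIR and the rest, were 0.988, 0.996, 0.994, 0.948 and 0.967. Zfp324 went from 7.93 ± 0.607 CPM in control to 3.12 ± 0.0764 CPM under CHIR, and Tasor from 48.1 ± 5.40 to 23.7 ± 1.80 CPM (SD over n = 3). 4930461G14Rik went from 8.41 ± 0.188 to 4.04 ± 0.0872 CPM, and Tlr5 from 2.52 ± 0.569 to 1.024 ± 0.0858 CPM (SD over n = 3). Tlr5 had only 17 to 63 counts per library, so its profile is the less certain. These genes were picked for their likeness, so no test is given here; Ppp1r10 also belongs to an elongation list and is described with it.

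**Figure D3:**
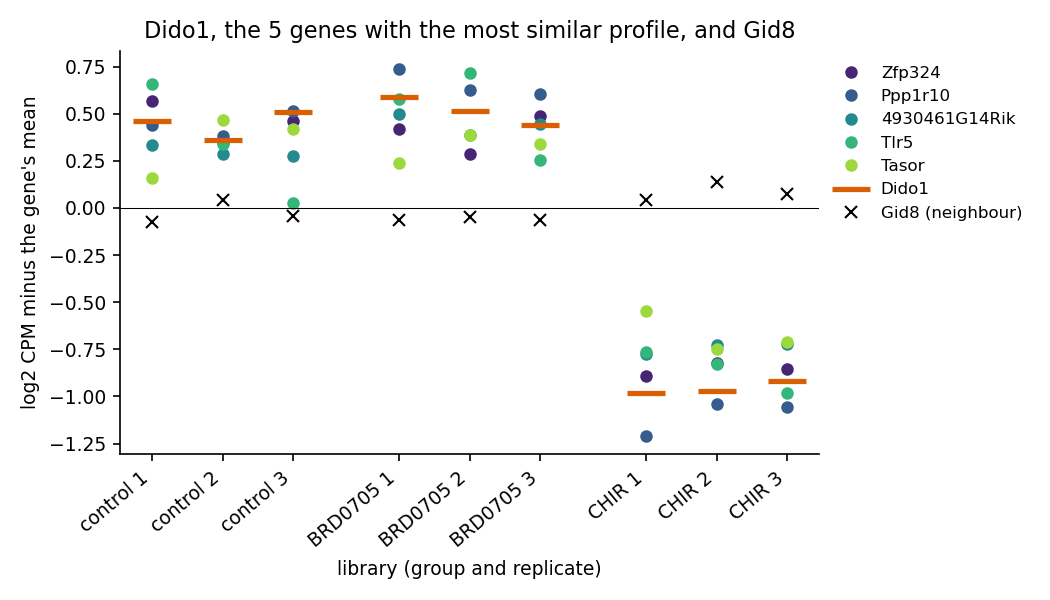
Log2 CPM minus the gene's own mean (vertical axis) in each library (horizontal axis) for Dido1 (orange bars), the 5 genes of most similar profile (coloured points) and the neighbour Gid8 (crosses). Dido1 lies between 0.36 and 0.59 in control and BRD0705 libraries and between -0.98 and -0.92 in CHIR libraries, and Gid8 stays within -0.07 and 0.14.

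Ppp1r10 crosses from the nuclear phosphatase genes into this group, since PNUTS, the protein phosphatase 1 regulator it encodes, has an N-terminal domain of the TFIIS type. It was at 126 ± 5.83 CPM in control, 146 ± 7.17 CPM under BRD0705 and 43.0 ± 2.71 CPM under CHIR (SD over n = 3), and Dido1 had 2.44 ± 0.0330, 2.21 ± 0.0428 and 2.71 ± 0.147 reads per Ppp1r10 read in these groups (SD over n = 3).

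Other genes of transcription elongation were read from 9 lists that were chosen with earlier results of these data known. Without the 4 genes these lists hold 59 genes, of which 58 were tested. For CHIR against control 3 rose and 3 fell in edgeR's test, and the median log2 fold change was 0.05, against -0.01 for all tested genes, of which 2.52% rose and 3.78% fell. For CHIR, DESeq2 called 6 of the 58, and 16 had an unadjusted p under 0.05 in edgeR. Of all tested genes 5.65% and 20.5% did. Under BRD0705, 0 rose and 1 fell, with a median of 0.01 and with 0.690% and 0.534% of all tested genes in these directions. DESeq2 called 3 of the 58 in that contrast, and 16 of the 58 had an unadjusted p under 0.05 in edgeR, where 2.16% and 15.9% of all tested genes did. For BRD0705 against CHIR 4 were higher and 2 lower under BRD0705, where 4.80% and 2.97% of all tested genes were.

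Among the SPOC domain genes, which share with Dido1 and Phf3 the domain that reads phosphorylated partners, Rbm15 rose and Rbm15b fell under CHIR. Their proteins bring the RNA methylation machinery to its targets. Rbm15 was at 18.9, 19.3 and 20.9 CPM in control and 30.8, 27.1 and 26.4 CPM under CHIR, a log2 fold change of 0.51 ± 0.08 (SE; edgeR adjusted p 0.000548). Rbm15b was at 58.4, 54.5 and 57.5 CPM in control and 48.3, 49.1 and 42.5 CPM under CHIR, a log2 fold change of -0.28 ± 0.08 (SE; edgeR adjusted p 0.0317). Neither pair of groups overlapped, which was also so for 25.1% of all tested genes. Rbm15 passed in all 9 fits that left out 1 library, whereas Rbm15b lost its call when any single control or CHIR library was left out (adjusted p 0.0582 to 0.151), and with the GC and length trend removed (0.0662). Under BRD0705 neither passed (edgeR adjusted p 0.452 and 0.934), and between the inhibitors Rbm15 was lower under BRD0705 by a log2 difference of -0.64 ± 0.08 (SE; edgeR adjusted p 7.18e-05) and Rbm15b higher by 0.26 ± 0.08 (SE; edgeR adjusted p 0.0409). That call of Rbm15b held only without control replicate 1 or BRD0705 replicate 2, and leaving out any other library gave an adjusted p of 0.0521 to 0.174. It was also lost without the GC and length trend, where the log2 difference was 0.12 (adjusted p 0.354), with the feeder score in the model (0.0716), with the replicate block (0.0559) and in a fit of only the compared groups (0.0540). Spen, the large repressor of the SPOC family needed for X inactivation, did not pass in any contrast.

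Of the 9 genes of the TFIIS family and with a TFIIS type N-terminal domain, 1 passed for CHIR against control in edgeR and 1 in DESeq2. An unadjusted p under 0.05 was found for 4 of the 9. The shares of all tested genes were 6.30%, 5.65% and 20.5%. The gene that passed in edgeR was Ppp1r10, which had a log2 fold change of -1.55 ± 0.06 (SE). It was named above for its likeness to Dido1, so no p is given for it, and its pass in this list and in the counts over all lists is a description. Eloa, the elongin A gene, Med26, a Mediator subunit gene, and Iws1, whose protein binds SPT6, did not pass, with log2 fold changes of 0.14, 0.14 and 0.03. In BRD0705 against control 0 of the 9 passed in edgeR, 1 in DESeq2, and 2 had an unadjusted p under 0.05. In that contrast the shares of all tested genes were 1.22%, 2.16% and 15.9%. Ppp1r10 had a log2 fold change of 0.21 ± 0.06 there (SE) and did not pass in edgeR.

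The genes of the enzyme itself and of the core elongation factors gave 0 calls against control. Of the 13 RNA polymerase II subunit genes 0 passed for CHIR against control in edgeR and 0 in DESeq2, with 1 at an unadjusted p under 0.05 and log2 fold changes from -0.16 to 0.14. The 6 genes of DSIF and NELF, which set promoter-proximal pausing, and the 6 of the PAF complex gave 0 calls each by edgeR and by DESeq2 for CHIR, with 1 each at an unadjusted p under 0.05. The 3 histone chaperone genes Supt6, Supt16 and Ssrp1 gave 0 calls by either tool and 0 at an unadjusted p under 0.05. BRD0705 against control gave for these 4 lists also 0 calls by edgeR and by DESeq2, with 4 of 13, 0 of 6, 0 of 6 and 2 of 3 genes at an unadjusted p under 0.05. The shares of all tested genes with such a p were 20.5% for CHIR and 15.9% for BRD0705.

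Single genes of the remaining lists passed. Cdk12, which encodes a kinase of the polymerase tail, rose under CHIR from 190 ± 2.97 to 259 ± 16.1 CPM (SD over n = 3); the log2 change amounted to 0.45 ± 0.07 (SE; edgeR adjusted p 0.000548). Pcf11, which encodes a cleavage and termination factor, fell from 72.0 ± 3.44 to 49.0 ± 2.02 CPM (SD over n = 3); the log2 change amounted to -0.55 ± 0.06 (SE; edgeR adjusted p 3.81e-05). Both passed in all 9 fits that left out 1 library. Neither overlapped between CHIR and control, which was also so for 25.1% of all tested genes. Eaf1, an ELL partner gene, rose by 0.20 ± 0.06 (SE; edgeR adjusted p 0.0412) but lost its call without control replicate 2 or 3 or any CHIR library (adjusted p 0.0560 to 0.122), with library size only (0.0624) and with the feeder score in the model (0.310). Eloc, the elongin C gene, fell from 46.0 ± 2.64 in control to 37.6 ± 2.47 CPM under BRD0705 (SD over n = 3), a log2 fold change of -0.29 ± 0.07 (SE; edgeR adjusted p 0.0376). That call was lost without control replicate 2 or 3, any BRD0705 library or CHIR replicate 2 (adjusted p 0.0505 to 0.207), without the GC and length trend (0.143) and with the feeder score in the model (log2 fold change -0.17, adjusted p 0.755). The feeder score did not overlap between control and BRD0705, so its fit can hardly separate the score from the treatment.

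Between the inhibitors, Pcf11 was higher under BRD0705 by 0.57 ± 0.06 and Cdk12 lower by -0.33 ± 0.07 in log2 terms (SE; edgeR adjusted p 1.88e-05 and 0.00462). Scaf4, which encodes a factor against early termination, was higher under BRD0705 by 0.26 ± 0.06 (SE; edgeR adjusted p 0.0126) but not without BRD0705 or CHIR replicate 1 or 2 (adjusted p 0.0522 to 0.0771). The log2 difference of Ppp1r10 was 1.76 ± 0.06 (SE).

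**Figure D4:**
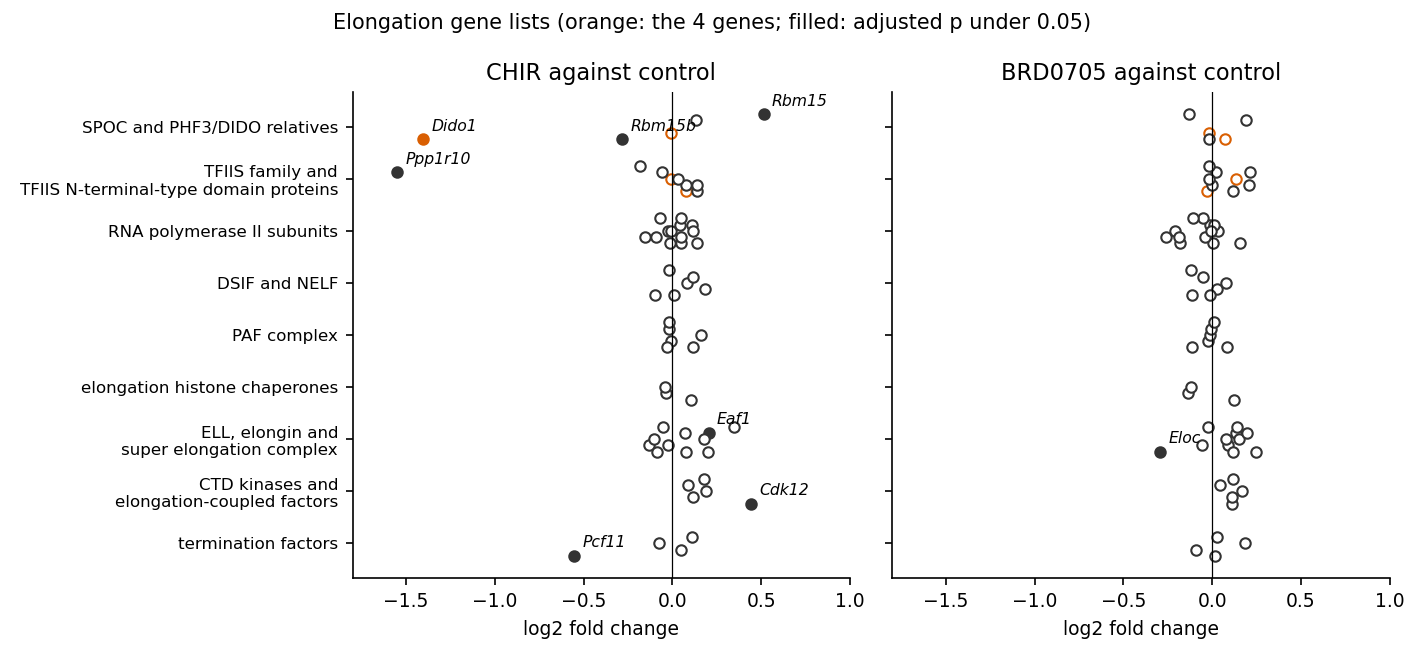
Log2 fold change (horizontal axes) of the genes of 9 elongation lists (rows; the small vertical offsets only separate points) for CHIR against control (left) and BRD0705 against control (right); orange marks the 4 genes, and filled, named points passed an adjusted p of 0.05. Under CHIR, Dido1, Ppp1r10, Pcf11 and Rbm15b are on the lower side and Rbm15, Cdk12 and Eaf1 on the higher side, while under BRD0705 the filled point is Eloc.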

How the data were processed

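RNA was sequenced from 9 libraries, 3 each of control, BRD0705 and CHIR. The authors deposited raw counts per gene symbol as whole numbers. RSEM, DESeq2 and the build mm10 are named in the submitters' processing notes, without version or role, and the aligner, annotation and use of strand are not given in the sources used here. The deposited normalized table was not used.

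The test of the counts was that of edgeR 4.0.16 (R 4.3.3), after TMM scaling and filterByExpr (grouped, minimum count 10): quasi-likelihood F tests in 1 fit of 3 group means over all 9 libraries, 2-sided, with Benjamini-Hochberg adjustment over 15366 genes and a threshold of 0.05. Each standard error is the absolute log2 fold change over the root of F. Log2 CPM used a prior count of 2. The script was tested on simulated data. Depth was 17359422 to 20773337 counts per library. Replicates of a group differed by more than sampling noise (chi-square per degree of freedom 3.39 to 8.01 over 9 pairs).

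Named genes were the 4 members, Tcea2 and Spocd1, list genes past the threshold, flanking genes and the 5 profiles most like Dido1; Spen, Eloa, Med26 and Iws1 were added as examples after their values were seen. The members and lists were chosen with earlier results of these data known. Alternatives were the replicate block, DESeq2 1.42.0, its size factors, library size only, other filters, pairwise fits, the feeder score (mean log2 CPM of 10 markers) as a covariate and leaving out each library. Taking out the trends of each library along GC content and transcript length was chosen after seeing the data. Positions and promoters are from RefSeq on GRCm38.p6; lengths and untranslated regions are from GENCODE vM39.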

Additional observations from a re-analysis of the deposited data

How the results depend on the processing

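The log2 fold change of Dido1 for CHIR against control ranged from -1.43 to -1.34 over 18 alternatives, and for BRD0705 against CHIR from 1.35 to 1.51. Its value for BRD0705 against control ranged from 0.00996 to 0.116 and passed in none of the 18, which is a description only. Phf3, Tcea1 and Tcea3 passed in no contrast under any of the 18, and some of their values, which lie near 0, changed sign. For CHIR against control, Phf3 was at 0.00299 with DESeq2 size factors in edgeR, 0.00296 with DESeq2, 0.0204 with the feeder covariate and 0.0313 without the GC and length trend, and from -0.0349 to 0.0394 without single libraries. Tcea3 was at 0.0031, 0.00324, 0.00397 and 0.0462 under the same settings and from -0.0667 to 0.0918 without single libraries. For BRD0705 against control, Phf3 (0.0176) and Tcea1 (0.0146) changed sign with the feeder covariate and Tcea1 (0.01997) and Gid8 (0.0131) without the GC trend; without single libraries Phf3 ranged from -0.0498 to 0.0292, Tcea1 from -0.0754 to 0.0293 and Gid8 from -0.0583 to 0.00756. For BRD0705 against CHIR, Phf3 was at 0.0211 with library size only and from -0.0312 to 0.00637 without single libraries. Tcea2 for CHIR ranged from -0.0269 to 0.177 without single libraries.

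Counts over all genes moved more. For CHIR against control they were 968 (40.0% higher), 227 with the feeder covariate, 1559 without the GC trend (66.2% higher), 954 with library size only (26.4% higher) and 514 to 1070 without single libraries (lowest without CHIR replicate 2; moved by over 1.5 times also without control replicate 2 or 3 or CHIR replicate 1). For BRD0705 against control they were 188, 332 with DESeq2, 609 without a filter, 0 with the feeder covariate (edgeR; 1106 at an unadjusted p under 0.05), 108 without the GC trend and 21 to 305 without single libraries (all but CHIR replicates 1 and 3 moved it by over 1.5 times; lowest without BRD0705 replicate 1). For BRD0705 against CHIR they were 1194 (61.8% higher), 1459 without the GC trend (32.7% higher), 1151 with library size only (79.2% higher) and 616 to 1313 without single libraries (moved by over 1.5 times without replicate 1 or 2 of either inhibitor). List genes other than the members passed for CHIR in 6 cases, 11 without the GC trend, and 4 to 8 without single libraries. For BRD0705 it was 1, with 2 under DESeq2 size factors, library size only or a mean CPM of at least 1, 3 with DESeq2, 5 without a filter, 0 with the feeder covariate or without the GC trend, and 0 to 4 without single libraries. Between inhibitors it was 6, 10 without the GC trend and 4 to 7 without single libraries. The causes were not tested.

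With the replicate number as a block, Dido1 for CHIR against control was -1.40, the counts were 973, 222 and 1177, and 2 list genes passed for BRD0705 against control; Rbm15b between inhibitors had an edgeR adjusted p of 0.0559. Deviations of same-numbered libraries had a mean correlation of -0.00119 over 9 pairs (-0.0897 to 0.0802). For libraries of different number it was 6.22e-04 over 18 pairs. The labels do not say whether same-numbered libraries were handled together. A correlation over all genes cannot decide it, since shared handling may touch only some genes. At this depth Tcea2 and Spocd1 are too low for small changes to be detectable.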
